A study of Canis lupus familiaris with 10 samples.

Results

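KIT, the platelet-derived growth factor (PDGF) receptors, their ligands and the adaptor DOK5 were examined in cells cultured from hemangiosarcomas of 10 dogs. The 9 genes were KIT, PDGFRA and PDGFRB among receptors, KITLG, PDGFA, PDGFB, PDGFC and PDGFD among ligands, and DOK5. They were chosen by name, as every probe set (a group of short probes that together measure a transcript) that the annotation of the array gives to 1 of these genes alone. This gave 12 probe sets of 42924 besides the controls, and 9 genes of 15115 named. Hemangiosarcoma is a malignant tumor of vessel-forming cells that is common in dogs. KIT and the PDGF receptors are related receptor tyrosine kinases of class III. A dimeric ligand brings a pair of receptors together, the receptors phosphorylate each other, and the phosphorylated tyrosines recruit adaptors and enzymes that act through RAS, PI3K and phospholipase C. KIT with its ligand, stem cell factor, serves mast cells, melanocytes and blood progenitors, whereas PDGF receptors serve mesenchymal cells such as fibroblasts, pericytes and smooth muscle.

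All cells came from tumors of the spleen, were grown in culture and were frozen at the earliest passages on hand. Of the 6 Golden Retrievers, 3 were males (CHAD-G4, CHAD-G8 and Tucker) and 3 were females (CHAD-G6, Frog and Journey), and Frog and Journey were distant relatives. The non-Golden Retriever group held 3 males of 3 breeds, CHAD-P9 (Portugese Water Dog), Dal-4 (Dalmation) and Joey (Rottweiler). DD-1, a male labelled Golden Mix, was a cross of Golden Retriever and Great Pyrenees and stood in neither group. No agent or genetic change separated the groups, so the comparison asked which transcripts go with the breed of the dog that bore the tumor. Each dog gave 1 culture and 1 array, so each SD below is the spread between dogs and contains any error of culture and array, and the number of arrays limits the precision. These were bulk samples, so fewer cells of a type and less RNA per cell cannot be told apart.

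Values are log2 signals after robust multiarray averaging (RMA). A level can be compared between dogs for a given probe set, but not between probe sets or genes. As a guide to dim probe sets, a line was drawn at the 40th percentile of each array, which lay at 5.02 to 5.16. A probe set entered the test if it lay above this line on at least 3 of the 10 arrays. The line is a rank and not a detection call. A signal under it may be background, and a signal little above it need not be expression. Among the members, 8 probe sets of 7 genes were tested, and the probe sets for KIT and PDGFA and probe set B of PDGFB were not.

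The labelled cell type was checked against marker genes. Each marker was read at its probe set of highest mean. Of 12 endothelial markers, 4 lay above the line on all arrays (CDH5, TIE1, KDR and CLDN5) and 4 on none, among them PECAM1, a defining adhesion molecule of endothelium, at 4.03 to 4.72. CDH5 was little above the line, at 5.15 to 5.41, and its other probe sets were above it in 1 dog at most. Second probe sets of TIE1 (3.36 to 3.79) and CLDN5 (3.42 to 3.82) were under the line in every dog. Of 8 fibroblast markers, 6 lay above the line on all arrays (DCN, COL1A1, COL1A2, COL3A1, THY1 and FAP), with COL1A2 at 14.00 to 14.32. Of 10 pericyte and smooth muscle markers, 6 did (MCAM, ACTA2, DES, CNN1, TAGLN and ANGPT1), while RGS5, a defining gene of pericytes, was under the line in every dog at 3.75 to 4.21. Of 8 hematopoietic markers, 3 lay above the line on all arrays (CD34, CD14 and RUNX1), and PTPRC (CD45) was under it in every dog, at 4.60 to 4.96. Of 6 mast cell markers, 0 lay above the line on all arrays and 4 on none, with CPA3, the mast cell carboxypeptidase, at 3.52 to 3.84. Cells of Dal-4 and CHAD-G4 stood apart in some of these markers, though not alone. The fibroblast marker LUM was 4.40 in Dal-4 and 12.47 to 14.08 elsewhere, and ACTA2 was 6.39 in CHAD-G4 and 9.73 to 14.13 elsewhere. Other dogs stood out in other markers, as DES was highest in Journey, at 9.48, and CNN1 was lowest in Joey, at 5.11. Dal-4 also went against its recorded sex, since EIF2S3, a gene with copies on the X and Y chromosomes, was 2.95 in Dal-4, 3.08 to 3.33 in the 3 females and 10.15 to 10.60 in the other 6 males. Differences are therefore also given without Dal-4 and CHAD-G4.

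KIT, the receptor of stem cell factor, had no signal above the line in any dog. At probe set A, the one of higher mean for KIT (gene 403811), signals in Golden Retrievers ran from 4.09 in Frog through a median of 4.25 to 4.69 in Tucker. They were 4.02 in CHAD-P9, 3.80 in Dal-4, 4.05 in Joey and 4.24 in DD-1. The 6 Golden Retrievers thus all read higher than the 3 other dogs, but by a mean difference of only 0.35 log2 units and within signals that may be background, so no direction was read from it. Probe set B for KIT lay between 3.84 and 4.17 in all dogs. Here the groups overlapped and differed by 0.06. Both probe sets thus read dim in all 10 cultures. This is a reading of RNA and does not show that the receptor was absent. The study cites earlier protein work in which KIT and CD45 levels were equivalent in hemangiosarcomas of Golden Retrievers and of other dogs. Of the 6 mast cell markers, CPA3, MS4A2, HDC and GATA2 were likewise under the line in every dog, CMA1 was above it in 1 dog, and FCER1A, a chain of the IgE receptor, was above it in 7 dogs, up to 7.42 in CHAD-G4.

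PDGFRA, the receptor that binds PDGF A, B and C chains, was above the line in every culture and varied widely between dogs. The signal (gene 442860) was 6.46 in CHAD-G4, 7.50 in Journey, 8.17 in CHAD-G8, 8.21 in CHAD-G6, 8.37 in Tucker and 10.06 in Frog. It was 8.20 in CHAD-P9, 9.16 in Joey, 9.87 in Dal-4 and 10.08 in DD-1. Frog and DD-1 were the highest and CHAD-G4 the lowest, a span of 3.63 log2 units that was wider than that of 96.4% of tested probe sets. The groups overlapped. Golden Retrievers averaged 8.13 ± 1.18 (SD, n = 6) and non-Golden Retrievers 9.08 ± 0.837 (SD, n = 3), a difference of -0.95 (SE 0.676, 95% interval -2.47 to 0.57, adjusted p = 0.821 by limma). It was -0.55 without Dal-4, -0.62 without CHAD-G4 and -0.22 (SE 0.627, adjusted p = 1 by limma) without both. It was -1.34 without Frog (SE 0.511, unadjusted p = 0.0297, adjusted p = 0.57 by limma) and -1.39 without CHAD-P9 (SE 0.771, unadjusted p = 0.108 by limma). In the dog assembly UU_Cfam_GSD_1.0, PDGFRA is the neighbor of KIT, with 0 protein-coding genes between them.

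PDGFRB, the receptor of B and D chains that pericytes and fibroblasts rely on, was above the line in every culture at both of its probe sets (gene 442985). At probe set A, Golden Retrievers ran from 6.04 in CHAD-G4 through a median of 6.26 to 6.76 in CHAD-G8. The signal was 6.15 in Dal-4, 6.23 in Joey, 7.17 in CHAD-P9 and 6.53 in the cross DD-1. CHAD-P9 stood highest at both probe sets. At probe set B it had 7.84, against 7.08 in DD-1, 7.02 in CHAD-G8, 6.83 in Journey and 5.49 to 6.10 in the other 6 dogs. The groups overlapped at both. The differences were -0.18 (SE 0.255, 95% interval -0.75 to 0.40, adjusted p = 0.926 by limma) and -0.37 (SE 0.478, 95% interval -1.45 to 0.70, adjusted p = 0.912 by limma). Without CHAD-P9 the first turned to 0.15, and without Dal-4 and CHAD-G4 it was -0.30 (SE 0.287).

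**Figure D1:**
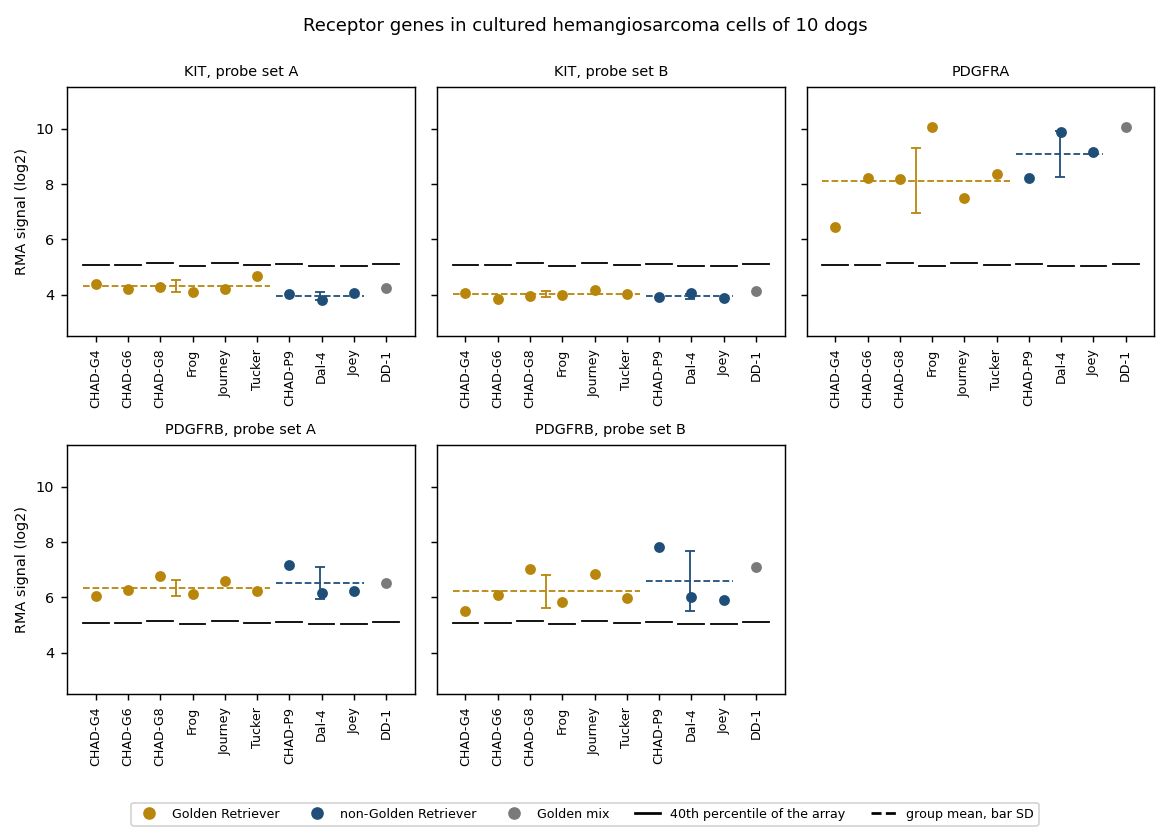
RMA signal (log2, vertical axis) of each probe set for KIT, PDGFRA and PDGFRB in the 10 dogs, where points are dogs, dashed lines with bars are group means ± SD and short black lines are the 40th percentile of each array. All KIT points lie under the black lines, and PDGFRA spreads from 6.46 in CHAD-G4 to 10.08 in DD-1.

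KITLG, which encodes stem cell factor, was well above the line in all dogs. The signal (gene 403507) in Golden Retrievers ran from 8.90 in Tucker through a median of 9.27 to 10.07 in CHAD-G4. It was 10.09 in CHAD-P9, 9.83 in Dal-4, 10.02 in Joey and 9.72 in DD-1. CHAD-G4 and CHAD-G6 (9.99) reached the level of the non-Golden Retrievers, and the other 4 Golden Retrievers, at 9.30 or less, were lower than every other dog. Golden Retrievers averaged 9.45 ± 0.470 (SD, n = 6) and non-Golden Retrievers 9.98 ± 0.137 (SD, n = 3), a difference of -0.53 (SE 0.267, 95% interval -1.13 to 0.07, adjusted p = 0.776 by limma). Without Dal-4 and CHAD-G4 it was -0.73 (SE 0.275, unadjusted p = 0.0302, adjusted p = 1 by limma).

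PDGFC, a ligand that must be cut by a protease before it can bind PDGFRA, read higher on average in Golden Retrievers, but the difference did not pass the adjusted test. The signal (gene 482666) in Golden Retrievers ran from 8.67 in Journey through a median of 9.07 to 9.84 in CHAD-G6. It was 7.18 in CHAD-P9, 7.68 in Dal-4, 9.08 in Joey and 8.31 in DD-1. CHAD-P9 and Dal-4 were the lowest of all dogs, DD-1 lay between them and the lowest Golden Retriever, and Joey lay within the Golden Retriever range. Golden Retrievers averaged 9.15 ± 0.473 (SD, n = 6) and non-Golden Retrievers 7.98 ± 0.984 (SD, n = 3). This difference of 1.17 (SE 0.416, 95% interval 0.23 to 2.10) had an unadjusted p of 0.0196 and an adjusted p of 0.774 by limma. It stayed positive without each purebred dog in turn, from 0.77 without CHAD-P9 to 1.72 without Joey. It no longer had an unadjusted p under 0.05 without CHAD-P9, without Dal-4, or without Dal-4 and CHAD-G4 together (0.94, SE 0.517, unadjusted p = 0.109 by limma).

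PDGFD, the other ligand that needs a protease, and a ligand of PDGFRB, was above the line in 4 of 6 Golden Retrievers and in 0 of 3 non-Golden Retrievers. The signal (gene 479460) was 6.72 in Tucker, 5.76 in Frog, 5.64 in Journey and 5.51 in CHAD-G8, but 4.27 in CHAD-G4 and 4.20 in CHAD-G6. It was 4.52 in CHAD-P9 and Joey, 3.69 in Dal-4 and 4.06 in DD-1. The groups overlapped, since CHAD-G4 and CHAD-G6 were as dim as the dogs outside the breed. The means were 5.35 ± 0.967 (SD, n = 6) and 4.24 ± 0.478 (SD, n = 3), a difference of 1.11. The probe set entered the fit only through 4 Golden Retrievers, so no test of this difference is given. As all 3 non-Golden Retrievers were under the line, their side of it is only a bound, and the Golden Retriever mean exceeded the mean of their lines by 0.29. Without Dal-4 and CHAD-G4 the difference was 1.05.

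PDGFB, the chain that endothelial cells release to recruit pericytes, varied little. Its probe set A (gene 442986), the brighter one, in Golden Retrievers ran from 6.50 in Tucker through a median of 6.57 to 7.16 in CHAD-G8. It was 7.01 in CHAD-P9, 6.42 in Dal-4, 6.68 in Joey and 6.87 in DD-1. The groups overlapped, and the difference was 0.04 (SE 0.211, 95% interval -0.44 to 0.51, adjusted p = 0.985 by limma). Probe set B was under the line in every dog, at 4.19 to 4.57 in Golden Retrievers and 3.90 to 4.26 in the others.

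PDGFA, the chain that binds PDGFRA alone, was near or under the line. Its probe set (gene 491597) was above the line only in Frog, at 5.26, and in Joey, at 5.04. In the other dogs it was 4.44 to 5.06. The groups overlapped, with means of 4.89 ± 0.291 (SD, n = 6) and 4.86 ± 0.167 (SD, n = 3), and it was not tested.

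**Figure D2:**
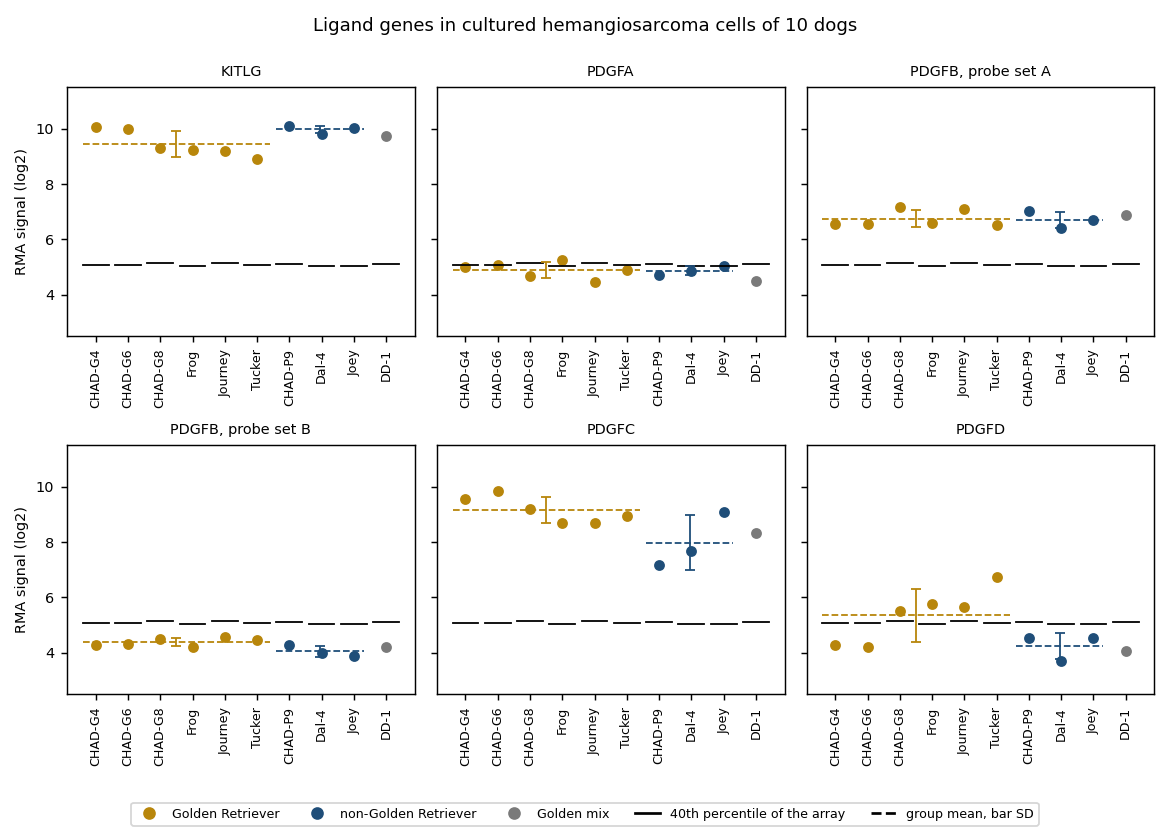
RMA signal (log2, vertical axis) of each ligand probe set in the 10 dogs, where points are dogs, dashed lines with bars are group means ± SD and short black lines are the 40th percentile of each array. KITLG and PDGFC are far above the black lines in every dog, PDGFD is above them in 4 Golden Retrievers, and PDGFA and the PDGFB probe set B lie near or under them.

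DOK5, a docking protein that binds phosphorylated receptor tyrosine kinases such as RET, had the widest range among the members. Since DOK5 joined the list with its signals in these dogs already known, its breed difference is given as a description. The signal (gene 485936) was 9.55 in CHAD-G4, 8.43 in CHAD-G6, 8.40 in CHAD-G8, 7.94 in Frog, 6.47 in Tucker and 6.35 in Journey. It was 4.64 in CHAD-P9, 4.39 in Dal-4 and 4.20 in Joey, all under the line, and 6.56 in DD-1. The 6 Golden Retrievers did not overlap with the 3 other dogs, and DD-1 read with Tucker and Journey at the low end of the Golden Retriever range. The means were 7.86 ± 1.24 (SD, n = 6) and 4.41 ± 0.220 (SD, n = 3). The means differed by 3.45. This is given with no test, also because the probe set entered the fit only through Golden Retrievers and DD-1. Against the mean line of the non-Golden Retriever arrays, the Golden Retriever mean was at least 2.80 log2 units higher. Without Dal-4 and CHAD-G4 the difference was 3.10, and without each purebred dog in turn it was 3.11 to 3.75.

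For the 6 other DOK genes, adaptors of the same family, the levels of the groups overlapped. For the 5 that were tested the differences ran from -0.19 to 0.01, with a median of -0.09, and 0 had an unadjusted p under 0.05. DOK6, a close relative of DOK5 and picked out for that reason, was above the line in every dog, from 6.98 in Tucker to 9.29 in DD-1.

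**Figure D3:**
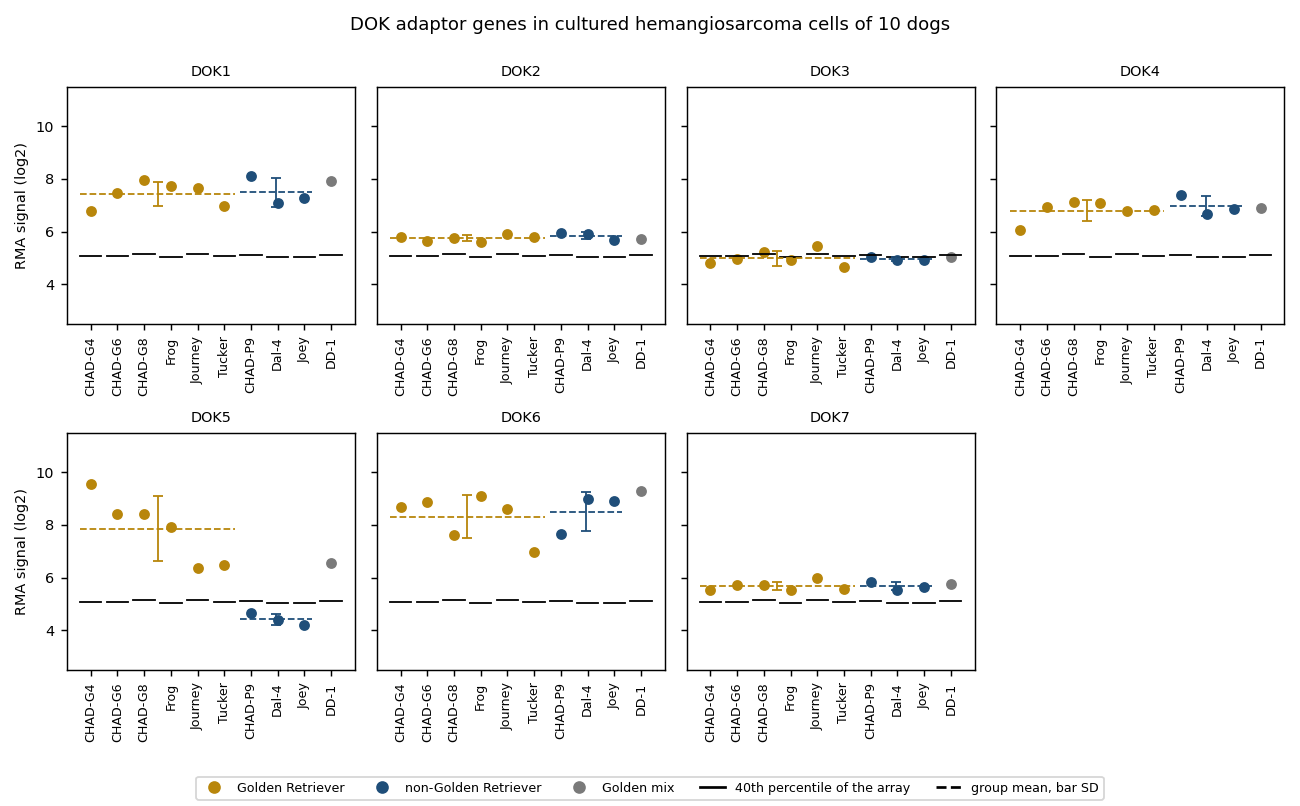
RMA signal (log2, vertical axis) of DOK1 to DOK7 in the 10 dogs, 1 probe set per gene, where points are dogs, dashed lines with bars are group means ± SD and short black lines are the 40th percentile of each array. DOK5 reads 6.35 to 9.55 in Golden Retrievers and 4.20 to 4.64 in non-Golden Retrievers, and the groups overlap for the 6 other genes.

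Counted over the members, 0 of 8 tested probe sets differed between the breed groups at an adjusted p under 0.05, where 0.00372% of all 26891 tested probe sets did, which was 1 probe set. At an unadjusted p under 0.05, 2 of 8 differed, DOK5 and PDGFC, both higher in Golden Retrievers, where 6.32% of all tested probe sets did (1.81% higher and 4.5% lower in Golden Retrievers). DOK5 was also the single tested member whose groups did not overlap, where 2.45% of all tested probe sets did not (0.792% higher and 1.66% lower in Golden Retrievers). Nothing was read from the place of DOK5 in these counts, since its values chose it. That leaves PDGFC, 1 of the other 7. By receptor and ligand, the differences of PDGFRA, PDGFRB and KITLG were below 0, as were those of 52.8% of all tested probe sets. Those of PDGFB, PDGFC and PDGFD were above 0. No contrast of receptors and ligands was read from these signs. PDGFRB and PDGFB changed sign when some single dogs were left out, and PDGFD entered the fit only through Golden Retrievers. The median difference over all tested probe sets was -0.02. In the exact permutation test over all 84 splits of 6 dogs against 3, two-sided and unadjusted, p was 0.0476 for PDGFC, 0.119 for KITLG, 0.286 for PDGFRA, 0.536 for PDGFRB and 0.762 for PDGFB. Markers of cell types were set beside these values. The difference of the endothelial gene ERG was 0.90 (unadjusted p = 0.0308, adjusted p = 0.774 by limma). A dimmer tested probe set of ERG differed by only 0.07 (unadjusted p = 0.611 by limma), and its other probe sets were under the line in every dog. The difference of the fibroblast gene DCN was 0.74 (unadjusted p = 0.0325, adjusted p = 0.774 by limma). At dimmer probe sets, unadjusted p was also under 0.05 for COL1A1 (0.86) and RUNX1 (0.49), each with an adjusted p of 0.774 by limma. The probe sets of FLT1 entered the fit only through Golden Retrievers, so their differences of 2.19, 2.25 and 1.32 are given with no test. The mean signal of the 12 endothelial markers was 4.88 to 5.51 in Golden Retrievers and 4.73 to 5.41 in the others. That of the 8 fibroblast markers was 11.15 to 12.29 and 9.74 to 11.89, and that of the 10 pericyte and smooth muscle markers 6.36 to 8.17 and 6.87 to 7.95. That of the 8 hematopoietic markers was 5.32 to 5.94 in Golden Retrievers and 4.86 to 5.37 in the others, and all 4 tested were above 0 in difference. These 4 differences ran unevenly from 0.09 to 2.13, with a median of 0.20, and 4 of the 8 genes lay above the line on no array. The mean signal of the 6 mast cell markers was 4.21 to 4.56 and 4.22 to 4.39. Their part in the member differences was not tested.

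**Figure D4:**
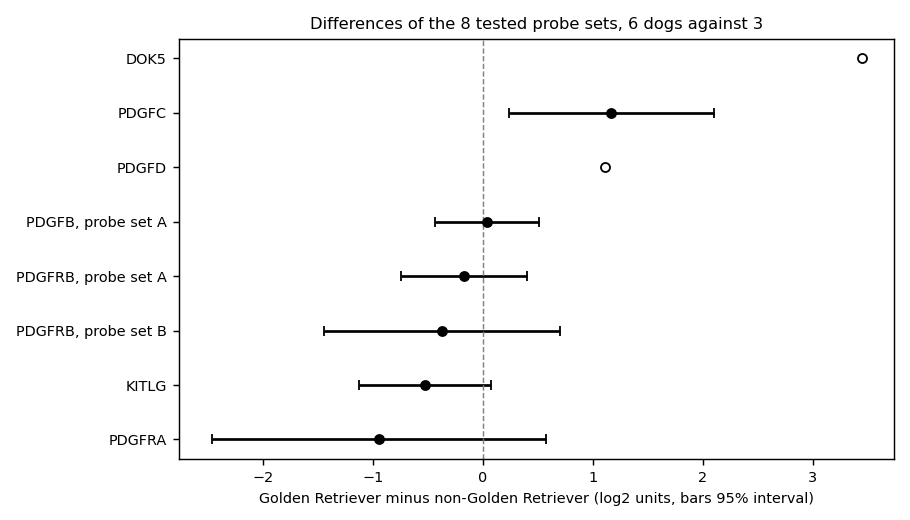
Difference of the 8 tested member probe sets, Golden Retriever minus non-Golden Retriever (log2 units, horizontal axis, 6 dogs against 3), with 95% intervals from limma as bars. The interval of PDGFC (0.23 to 2.10) lies above 0 before adjustment, those of the other 5 filled points include 0, and DOK5 (3.45) and PDGFD (1.11), open and with no interval, entered the fit with every non-Golden Retriever under the line.

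Receptors and ligands were set against each other across the 10 dogs in 7 pairs. Correlations are over log2 signals, with p by permutation and adjusted over the 7 pairs, and the arrays share their normalization. PDGFRB and PDGFB gave the one relation that passed, with Pearson's r = 0.831 (permutation p = 0.00244, adjusted p = 0.0171), while Spearman's rho was 0.697 (permutation p = 0.0312, adjusted p = 0.218). Without CHAD-P9 and CHAD-G8, the 2 dogs farthest from the median of PDGFRB, r was 0.874 (permutation, adjusted p = 0.0691), and within the 6 Golden Retrievers it was 0.928 (permutation p = 0.0375, adjusted p = 0.263). The dogs fell apart in 4 and 6, however. CHAD-G8, Journey, CHAD-P9 and DD-1 had 6.53 to 7.17 for PDGFRB and 6.87 to 7.16 for PDGFB, above the other 6 dogs at 6.04 to 6.28 and 6.42 to 6.68. Among those other 6 dogs r was 0.151. Since the 4 were left out for being high in both genes, which narrows the range, this value is a description. These 4 arrays also had the highest 40th percentiles of all, 5.10 to 5.16 against 5.02 to 5.08. With this percentile taken out by regression, a setting chosen after seeing the data, r was 0.545 (permutation p = 0.102, adjusted p = 0.293). With each array centred on its median, a planned setting, r was 0.816 (permutation p = 0.00303, adjusted p = 0.0212).

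The other 6 pairs had adjusted permutation p of 0.417 to 0.909 for r and 0.628 to 0.865 for rho. For KIT with KITLG r was -0.499 (rho -0.370), and for KIT with PDGFRA it was -0.457 (rho -0.321), where KIT was under the line in every dog. Without Dal-4 and Tucker, the farthest from the median of KIT, these were -0.051 and -0.518, and without Dal-4 and CHAD-G4 they were -0.676 (permutation p = 0.0336, adjusted p = 0.118) and -0.204. For PDGFRA, r was 0.121 with PDGFA (rho 0.224), -0.414 with PDGFC (rho -0.382) and -0.111 with PDGFRB (rho -0.224). Without CHAD-G4 and DD-1, the farthest from its median, these were 0.719, -0.214 and -0.610, and without Dal-4 and CHAD-G4 they were 0.369, -0.098 and -0.417. For PDGFRB with PDGFD, r was 0.042 (rho 0.067), 0.109 without CHAD-P9 and CHAD-G8, and -0.25 without Dal-4 and CHAD-G4.

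Further genes of the pathway came from 5 lists of 67 genes, of which 57 were named by a probe set and 51 were tested. At 1 probe set per gene, the one of highest mean, 0 of the 51 passed the adjusted test, and 5 had an unadjusted p under 0.05, or 9.8% where 6.32% of all tested probe sets did. All 5 were lower in Golden Retrievers, where 4.5% of all tested probe sets were lower at this threshold and 1.81% higher. PTPN11 encodes SHP2, a phosphatase that links receptors to RAS. It was 6.51 to 7.54 in Golden Retrievers and 7.50 to 7.80 in the others, a difference of -0.84 (SE 0.234, unadjusted p = 0.00538). Frog, at 7.54, was the single Golden Retriever to reach the other dogs. For PLCG1, the phospholipase that receptors recruit directly, the ranges were 6.58 to 7.01 and 7.01 to 7.60, a difference of -0.55 (SE 0.166, unadjusted p = 0.00881). For SOS1, an exchange factor that loads RAS with GTP, the difference was -0.66 (SE 0.267, unadjusted p = 0.0331). CRKL, an SH2 and SH3 adaptor, differed by -0.35 (SE 0.153, unadjusted p = 0.0484). SPRED1, an inhibitor of the RAS pathway, differed by -0.50 (SE 0.208, unadjusted p = 0.0377). Each had an adjusted p of 0.774 by limma, and the groups overlapped for all 51 genes at these probe sets. Over all 87 tested probe sets of the lists, 9 had an unadjusted p under 0.05, or 10.3%, of which 7 were lower and 2 higher in Golden Retrievers, and 0 passed the adjusted test. Both that were higher belonged to LRP1, a co-receptor of PDGFRB that is named here after its values were seen. Of its 4 tested probe sets, 2 had an unadjusted p under 0.05. At the first, Golden Retrievers had 8.32 to 9.21 and the others 7.92 to 8.08, with no overlap and a difference of 0.59 (SE 0.197, unadjusted p = 0.0144, adjusted p = 0.774 by limma). This was 1 of 87 tested probe sets of the lists without overlap, where 2.45% of all tested probe sets had none. At the other the difference was 0.48 (SE 0.205, unadjusted p = 0.0429, adjusted p = 0.774 by limma), and at the brightest it was 0.63 (SE 0.300, unadjusted p = 0.063 by limma). By the brightest probe sets, 27 genes were lower and 24 higher in Golden Retrievers, with a median of -0.01.

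By list, the 28 tested genes of downstream signaling (of 35) had a median difference of -0.07, with 17 lower. The 8 tested negative regulators (of 16) had a median of -0.20. The 5 related class III receptors and ligands (CSF1R, FLT3, CSF1, IL34 and FLT3LG) were all tested and all above 0, from 0.01 to 0.51, with a median of 0.23 and 0 at an unadjusted p under 0.05. Of all tested probe sets, 52.8% were below 0. CSF1R was little above the line, at 5.23 to 5.48, and second probe sets of CSF1R and FLT3 were under it in every dog. No direction was read from these signs. The 5 proteases and co-receptors that cut or hold PDGF ligands had a median of 0.28, from -0.04 to 0.63, at the brightest probe set of each. The other 10 genes of the lists were not analysed here.

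**Figure D5:**
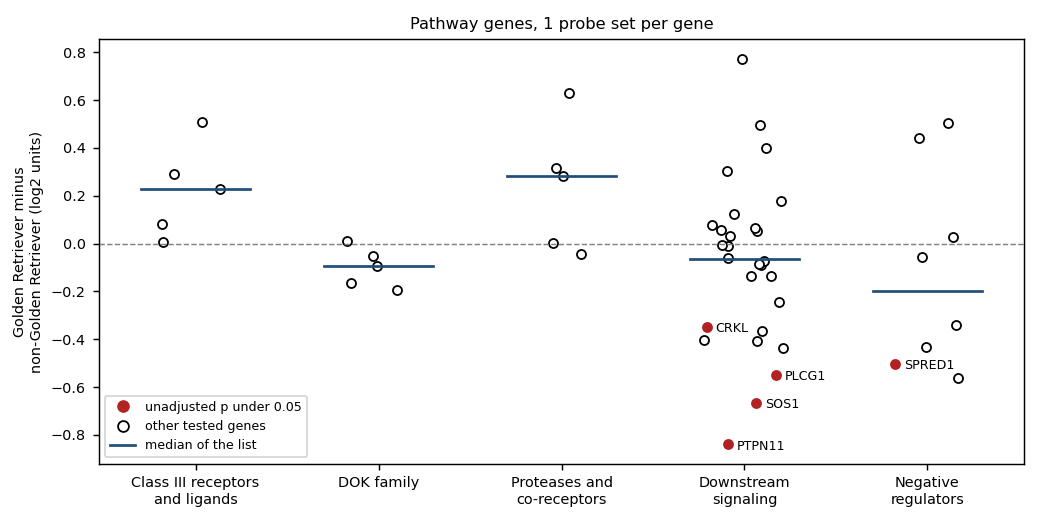
Difference of the 51 tested pathway genes, Golden Retriever minus non-Golden Retriever (log2 units, vertical axis), by list, where each point is a gene and each bar the median of its list. The 5 genes with an unadjusted p under 0.05 (filled) lie at -0.35 to -0.84, and medians run from -0.20 to 0.28.

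Likeness of pattern was measured by the root mean square difference over the 10 arrays, after centring each probe set on its mean. Candidates were 19925 tested probe sets of 1 named gene. The genes of most alike pattern were found for the 4 members whose probe set of highest mean spanned at least 2 log2 units. For DOK5, whose own root mean square deviation was 1.78, they were CD59 (0.758), a membrane inhibitor of complement, PTN (0.948), the growth factor pleiotrophin, and CA5B (1.00), a mitochondrial carbonic anhydrase. For PDGFC, with a deviation of 0.772, they were ADGRG6 (0.362), an adhesion G protein-coupled receptor, MYCBP2 (0.381) and FGF14 (0.405). For PDGFRA, with a deviation of 1.12, they were FIGNL1 (0.653), SPATS2 (0.657) and FKBP1B (0.678). For PDGFD, with a deviation of 0.913, they were SLC8A3 (0.526), a sodium-calcium exchanger, APOC1 (0.534), an apolipoprotein, and IGFBP5 (0.544), which binds insulin-like growth factors. These are descriptions of likeness over 10 dogs.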

How the data were processed

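RNA of each culture was hybridized to the Affymetrix Canine_2 array. The authors normalized the arrays by RMA with the affy package, per the labels (version not given in the sources used here), and the resulting deposited log2 signals were used unchanged. Every column of values matched 1 sample, so 0 were left out. Of 43035 probe sets, 111 controls were removed. Of the rest, 29254 had 1 gene symbol in the annotation of the array, 439 had several and 13231 had none, and only those with 1 symbol were named. The files name no genome build, so no coordinates are given.

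A probe set was tested if, on 3 or more arrays, its signal exceeded the 40th percentile of that array (26891 probe sets). The difference of Golden Retrievers (6 dogs) from non-Golden Retrievers (3 dogs) was fitted with limma 3.58.1 in R 4.3.3, without DD-1. P-values were two-sided and adjusted over all tested probe sets by the Benjamini-Hochberg method. The fit was tested on simulated data. A gene with several probe sets was represented by the one of highest mean. Correlations used Python 3.11.15 and SciPy 1.17.1 with 100000 permutations. Group is taken from the labels of breed, except for Joey, whose breed is in the title. Sex came from the study's table of dogs.

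The members and lists were chosen with earlier results of these data known. All members were named. Of the other lists, a gene was named at an unadjusted p under 0.05 or where groups did not overlap, and a marker also where it was above the line on all arrays or defined its list. For likeness, the 3 nearest genes were named. Alternatives were other filters, the methods' t-test, a mean-variance trend, centring of arrays, other places for DD-1, males only, and leaving out dogs.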

Additional observations from a re-analysis of the deposited data

How the results depend on the processing

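No paired analysis was possible because each dog stands in a single group and replicate numbers follow accession order. Of 19 alternatives, 0 brought a member to an adjusted p under 0.05, and PDGFC, KITLG and PDGFRA kept their sign wherever they were fitted. DOK5 and PDGFD did too, but nothing is read from this. Both entered the fit with every non-Golden Retriever under the line, and DOK5 was chosen by its values. The count of all probe sets at an adjusted p under 0.05 (1) became 2 by the methods' t-test, 0 with DD-1 as a non-Golden Retriever, 2 without Dal-4 and CHAD-G4, and 1 to 2 without single dogs (2 without Joey). The count at an unadjusted p under 0.05 (1699) became 690 with the variance above the median only, 922 with DD-1 as a non-Golden Retriever, 1080 without Dal-4 and CHAD-G4, and 968 (without Dal-4) to 3144 (without CHAD-P9) without single dogs. Among members that count (2) became 4 with no filter, which added dim probe sets of KIT and PDGFB. Without single dogs it was 1 to 4. It was 4 without CHAD-G4 or CHAD-G6, which added KITLG and PDGFD. Nothing is read from PDGFD there, as it entered the fit only through Golden Retrievers and was dimmest among them in these dogs. The count was 3 without Frog, which added PDGFRA, and 1 without CHAD-P9 or Dal-4, which lost PDGFC. PDGFRB was -0.36 to 0.15 without single dogs, above 0 without CHAD-P9. PDGFB (0.04) was -0.0059 with DD-1 as a non-Golden Retriever, -0.069 without Dal-4 and CHAD-G4, and -0.11 to 0.19 without single dogs, being -0.047 without CHAD-G8, -0.038 without Journey and -0.11 without Dal-4. For PDGFRB with PDGFB, the value was 0.697 as rho, 0.874 without CHAD-P9 and CHAD-G8, 0.928 in Golden Retrievers and 0.801 without Dal-4 and CHAD-G4. In settings chosen after seeing the data, it was 0.545 with the array percentile taken out and 0.151 without the 4 highest dogs. None of these 6 had an adjusted p under 0.05. With arrays centred on their median the value was 0.816, and with the mean of probe sets it was 0.825. In both of these settings the adjusted permutation p stayed under 0.05. For PDGFRB with PDGFD, r was -0.25 without Dal-4 and CHAD-G4 and -0.0093 with the mean of probe sets. The causes of these changes were not tested. KIT and PDGFA were fitted only with no filter. Dim signals limit what the arrays show of KIT, PDGFA and PDGFD, and a difference that did not pass is not shown to be absent.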

Other observations

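Among the 12 member probe sets, 0 had a Golden Retriever that stood far from the other 5 by Dixon's test. Genes whose pattern was near that of DOK5 were read dog by dog. The complement inhibitor CD59 had 11.47 in CHAD-G4, 10.87 in CHAD-G8, 10.85 in CHAD-G6, 9.78 in Frog, 9.68 in Tucker and 8.90 in Journey. It had 7.84 to 8.72 in the 3 non-Golden Retrievers and 9.10 in DD-1, so CHAD-G4, CHAD-G6 and CHAD-G8 were again the highest. Pleiotrophin (PTN), a secreted heparin-binding growth factor, had 11.64 in CHAD-G4, 10.96 in CHAD-G6 and 10.62 in CHAD-G8. It had 10.27 in DD-1, 7.70 to 8.69 in the other 3 Golden Retrievers and 6.36 to 7.55 in the 3 non-Golden Retrievers. These genes were chosen for their likeness to DOK5, so their order of dogs is no separate evidence.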
